A study of Mus musculus with 52 samples.

Results

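Transcripts of the pigmented cells of the eye were followed in mice that lack the Tug1 locus, through 10 genes of the retinal pigment epithelium and of melanin synthesis: Rpe65, Rlbp1, Best1, Ttr, Tyr, Tyrp1, Dct, Pmel, Mlana and Oca2. They were taken by gene name, and all 10 were found among the 28210 genes listed for eyes. Tug1 is a long noncoding RNA first described in retinal cells. RNA-seq had been done on polyadenylated RNA of male wild-type and Tug1-/- mice, whose Tug1_tm1.1Vlcg allele carries lacZ in place of the gene body, with the promoter and first exon retained. Of the 52 samples of the series, 46 lie behind the tables used.

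For eyes, heart, liver and spleen there were 3 wild-type and 3 Tug1-/- samples each, on a mixed C57BL/6J/129S6 background from which the selection cassette (Neo) had been removed, and for prostate 3 and 2. MEFs, fibroblasts cultured from mouse embryos of the same background, were 3 and 3 samples at an early passage. Testes came from 4 wild-type, 4 Tug1-/- and 3 rescue mice. The labels give the Tug1-/- and rescue testes mice as C57BL/6J with Neo and lacZ, and the wild-type ones as without Neo, while the methods of the study describe the removal of the neomycin gene from the colony. If the label holds, the cassette and the genotype cannot be told apart in testes. Rescue mice were Tug1-/- animals with a Tug1 transgene, tg(Tug1), and the activator CAGs-rtTA3, fed doxycycline to switch the transgene on. The brain means came from libraries outside this series, and their number is not in the labels. The labels give no age.

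The tables hold 1 value per genotype and tissue, the authors' mean in TPM (the part of a fixed total of transcripts that a gene contributes, after its length is allowed for), and none for a single mouse. No spread between mice, and therefore no test, could be computed from these means. The results of the authors' own tests stand beside them and were not used here, so every difference below is a difference of means given without its replicate error. The depth is known only through a mean normalised read count per gene, which summed to 48341823 per library in eyes and to between 17573743 (brain) and 44870704 (heart) in the other tissues for which it was given. In eyes Tug1 itself had a mean of 57.5 TPM in the wild type and 0.235 TPM in Tug1-/- mice, and it was lower in all 8 tissues.

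The retinal pigment epithelium is a single layer of black cells behind the photoreceptors. It turns spent vitamin A back into the form that the visual pigments need, through the isomerase Rpe65 and the retinaldehyde-binding protein Rlbp1, and it carries ions across its membrane, with Best1 as a chloride channel. It also makes melanin early in life, as do the melanocytes of the iris and choroid, which come from the neural crest. Melanin is made in melanosomes from tyrosine: Tyr (tyrosinase) starts the pathway, Dct and Tyrp1 carry out later steps, Pmel forms the fibrils on which the pigment is laid down, Mlana acts with Pmel, and Oca2 is a membrane protein that sets the acidity of the organelle. Ttr (transthyretin) carries thyroid hormone and, bound to Rbp4, retinol, and is made in the eye, the choroid plexus and the liver. Melanocytes are also known outside skin and eye, in the heart and, in some black mice, in the spleen.

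The genes for the enzymes of melanin synthesis share letters near their starts, and these are shown because the 3 transcripts are set side by side in the results that follow. MITF, the master factor of pigment cells, is known to bind CATGTG-type sites, and a longer form, TCATGTG, is often called the M-box. Promoter windows from 250 bases before to 50 bases after the start, from RefSeq on GRCm38.p6, were read for 7 of the 10 genes (Rpe65, Rlbp1, Best1, Tyr, Tyrp1, Dct and Oca2). Pmel and Mlana had no window in that set, and the window of Ttr was not read. TCATGTG, searched on both strands, was in the windows of Tyr, Tyrp1 and Dct and not in the other 4, and in 3.77% of all 32851 windows. The shorter CATGTG, which lies inside it, was in 6 of the 7 windows and in 14.2% of all. The E-box CACGTG was in 0 of the 7 and in 7.15% of all. The stretches of 30 bases around the M-box letters on the strand of the gene are given 5′ to 3′, with TCATGTG in capitals.
Tyr: gaaaaagttagTCATGTGctttgcagaaga
Tyrp1: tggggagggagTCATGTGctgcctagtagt
Dct: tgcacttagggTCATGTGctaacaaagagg
The Tyr stretch lies at chr7:87493516-87493545 on the minus strand, with the first letter of the motif 22 bases before the start. That of Tyrp1 lies at chr4:80834155-80834184 on the plus strand, 47 bases before the start. That of Dct lies at chr14:118052379-118052408 on the minus strand, 151 bases before it. Dct held a further match on the opposite strand, at chr14:118052460-118052489, read on the gene strand as cttggctgggaCACATGAgcccaataaaga. A match of letters is a description of the sequence and says nothing about binding in these eyes.

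The comparison of eyes asked whether pigment cell transcripts differed without Tug1. None of the 10 genes had a mean that was 1.5-fold higher or lower in Tug1-/- eyes. Across the 19203 genes with a mean of at least 1 TPM in eyes, 2.84% were at least 1.5-fold higher and 3.82% at least 1.5-fold lower (3.76% and 2.55% when centred on the median of all genes), so the count of 0 of 10 in each direction is close to the background. All 10 ratios lay between -0.18 and 0.16 on the log2 scale (0.1 TPM was added to each mean), with a median of -0.02. The log2 ratio had a median of -0.11 over all 19203 genes, and 72.4% of these genes were lower in Tug1-/- eyes, against 6 of the 10. Relative to the median of all genes, only Pmel remained lower (-0.07), and the 9 other genes lay from 0.01 (Rlbp1) to 0.27 (Best1).

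**Figure D1:**
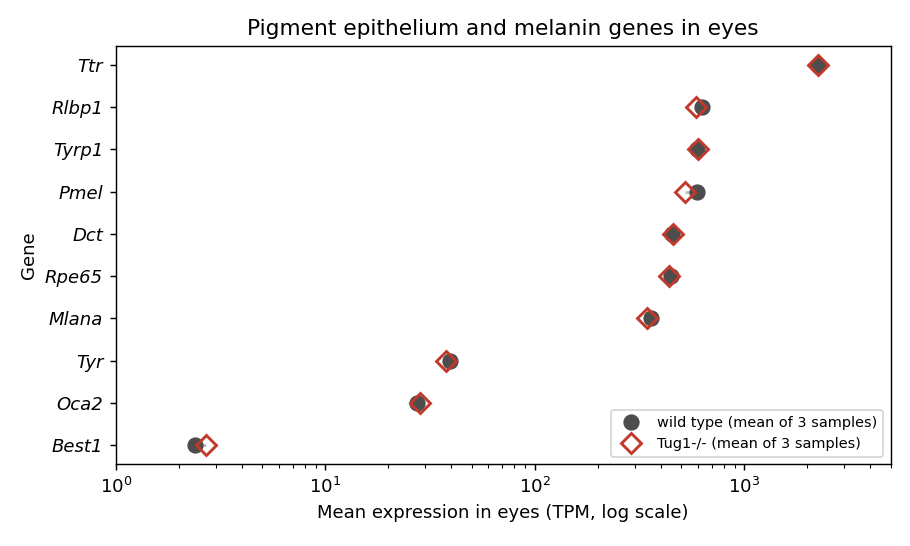
Mean expression of the 10 genes in wild-type (filled circles) and Tug1-/- (open diamonds) eyes, in TPM on a log axis, with 1 gene per row and 3 samples behind each mean. The markers of each gene overlap or nearly do: Pmel, from 595 to 525 TPM, and Best1, from 2.39 to 2.69 TPM, are the furthest apart.

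Among the genes of the visual cycle, Rpe65 had 449 TPM in wild-type and 438 in Tug1-/- eyes, a log2 ratio of -0.03. Rlbp1 had 629 and 588 TPM, a log2 ratio of -0.10. Rlbp1 is also made by Muller glia, the supporting cells of the retina, whose 7 marker genes had a median log2 ratio of -0.05. Best1 was by far the least abundant of the 10, with 2.39 and 2.69 TPM (log2 ratio 0.16), so its mean lay 187-fold below that of Rpe65 in the wild type. Each of the 3 transcripts was present at 93.5% to 112% of its wild-type mean.

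The counts behind these means limit how well they are known. Rpe65 rested on a summed normalised count of about 70465 over the 6 eye libraries, for which counting alone gives a standard error of 0.011 on the log2 scale, while Best1 rested on 451, for a standard error of 0.14. These errors were computed by dividing the summed count between the genotypes by their TPM. They cover counting error alone and leave out the spread between mice, so they are the least the error can be. The difference of Best1 was little more than 1 such standard error. Those of Rlbp1 and Pmel exceeded theirs many times over, which says nothing of how the mice differed. Relative to the median of all genes, the ratio was 0.01 for Rlbp1 and -0.07 for Pmel.

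Of the 6 melanin genes, 3 were slightly higher and 3 slightly lower in Tug1-/- eyes. Tyr, which sets the pace of the pathway, had 39.4 TPM in the wild type and 37.9 TPM in Tug1-/- eyes (log2 ratio -0.06). The 2 related enzymes were much more abundant and nearly level, with Tyrp1 at 598 and 603 TPM and Dct at 453 and 456 TPM, a log2 ratio of 0.01 each. Tyrp1 transcripts thus stood 15.2-fold above those of Tyr in wild-type and 15.9-fold above in Tug1-/- eyes, and Dct 11.5-fold and 12.0-fold. The ratio of Dct to Tyrp1 was 0.758 and 0.757.

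The structural genes of the melanosome varied a little more. Pmel had the largest log2 ratio of the 10 before centring, from 595 to 525 TPM (-0.18), or 88.2% of the wild-type mean. Relative to the median of all genes, Best1 had the largest (0.27, against -0.07 for Pmel). Pmel overlaps the ends of Cdk2 and Dgka, which lie on the other strand. Their means were 14.0 and 12.7 TPM for Cdk2 and 25.9 and 21.1 TPM for Dgka, and since the counting is not stated to have used strand, reads of the 3 genes may be shared. Mlana had 358 TPM in the wild type and 344 TPM in Tug1-/- eyes (log2 ratio -0.06). Oca2 had 27.3 and 28.3 TPM, a log2 ratio of 0.05. Oca2 and Dct each overlap an antisense gene model (Gm44506 and 4930435M08Rik), for which no value was listed in eyes.

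Ttr was the most abundant of the 10 and the most level, with 2252 TPM in the wild type and 2247 TPM in Tug1-/- eyes (log2 ratio -0.00). It overlaps the antisense gene model Gm16090, whose means were 0.305 and 0.137 TPM. The order of the 10 genes was the same in both genotypes except that Rlbp1 and Tyrp1 changed places: Ttr came first, then Rlbp1, Tyrp1 and Pmel within a narrow range, then Dct, Rpe65 and Mlana, then Tyr and Oca2, and Best1 last. Whether neighbours in this order differ beyond the spread between mice could not be tested. Together the 10 genes made up 5403 TPM in wild-type and 5270 in Tug1-/- eyes, or 0.541% and 0.527% of all transcripts.

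Small differences were common in these eyes. Of all genes of at least 1 TPM, 55.6% had a log2 ratio no further from 0 than that of Pmel, and so did 69.5% of the 8299 genes of at least 20 TPM. Among the 240 genes of like abundance (300 to 700 TPM), which include Rpe65, Rlbp1, Tyrp1, Dct, Pmel and Mlana, 63.7% lay within that range, and the central 90% of log2 ratios ran from -0.37 to 0.48. All 6 lay inside this span.

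The wider set of pigment epithelium and vitamin A genes was followed through 14 further genes, all with at least 1 TPM in eyes. One was at least 1.5-fold higher (2.84% of all genes were) and 0 were lower by that much (3.82% of all genes). In all 4 were higher and 10 lower, or near the 72.4% lower among all genes, and the median log2 ratio was -0.04. Rbp3, the carrier between photoreceptors and pigment epithelium, which photoreceptors make, was the most abundant, with 2195 and 1923 TPM (log2 ratio -0.19). Rgr, an opsin of the pigment epithelium and Muller glia that helps to renew the chromophore, had 671 and 676 TPM. Rdh5, a retinol dehydrogenase of the same cycle, had 170 and 159 TPM (log2 ratio -0.09). Slc16a8, a lactate carrier of the pigment epithelium, had 127 and 114 TPM (log2 ratio -0.17).

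The gene past 1.5-fold was Rbp4, the retinol carrier of blood that travels bound to Ttr. It had 7.19 TPM in wild-type and 17.4 in Tug1-/- eyes (log2 ratio 1.26), on a mean normalised count of 223 per library. Its partner Ttr was level in the same eyes. Other cell types moved with Rbp4. All 5 erythroid genes were at least 1.5-fold higher (Hbb-bs from 439 to 1396 TPM), as were 7 of 8 skeletal muscle genes (Tnnt3 from 1502 to 2627 TPM), against 2.84% of all genes. Fat cells also make Rbp4, and a list of 6 fat cell genes, written after the values had been seen, had all 6 at least 1.5-fold higher, with summed means of 201 and 853 TPM. The part of these tissues in the Rbp4 difference was not tested. Liver, the main source of Rbp4 in blood, had wild-type and Tug1-/- means of 5265 and 5481 TPM. Rbp4 also had a higher mean in Tug1-/- prostate (1.24 and 4.94 TPM, log2 ratio 1.91), on a mean normalised count of 46.7 per library. There 4 of 5 erythroid, 5 of 9 macrophage, 1 of 5 fibroblast and 0 of 4 skeletal muscle genes were at least 1.5-fold higher. Of all genes in prostate, 6.72% were past 1.5-fold in either direction. In spleen Rbp4 had a lower mean (1.62 and 0.850 TPM, log2 ratio -0.85), on a mean normalised count of 23.6 per library. There all 5 erythroid and 0 of 9 macrophage genes were at least 1.5-fold higher. Of all genes in spleen, 9.36% were past 1.5-fold in either direction. The part of other tissues in the prostate and spleen values was not tested.

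The melanosome was followed through 18 further genes of pigment transport, organelle assembly and its membrane. None was past 1.5-fold, 14 were lower and 4 higher, and the median log2 ratio was -0.12, close to the -0.11 of all genes. The glycoprotein Gpnmb had 223 and 215 TPM, the ion exchanger Slc24a5 had 76.0 and 73.7 TPM, and Myrip, a linker of melanosomes and myosin, had 52.3 and 51.7 TPM. The differences furthest from 0 were those of Hps1 (6.65 and 5.36 TPM, log2 ratio -0.31), of the myosin Myo5a (73.7 and 63.9 TPM, -0.21) and of Hps3 (21.8 and 18.7 TPM, -0.21). Hps1 and Hps3 are subunits of complexes that deliver enzymes to the melanosome.

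The factors and receptors of the melanocyte lineage spread more widely, with log2 ratios from -0.69 to 0.20. Of 9 genes, 8 had at least 1 TPM, of which 0 were at least 1.5-fold higher and 1 was at least 1.5-fold lower, against 3.82% of all genes. Of the 8, 4 were higher and 4 lower, and their median log2 ratio of -0.11 equalled that of all genes. The gene past the limit was Kit, the receptor tyrosine kinase that melanocytes need, with 12.1 TPM in wild-type and 7.48 in Tug1-/- eyes (log2 ratio -0.69). Mc1r, the melanocortin receptor, had 2.51 and 1.70 TPM (-0.53), and the factor Tfap2a had 18.7 and 14.4 TPM (-0.38). Mitf itself had 21.9 and 25.2 TPM (0.20), a gene named after its values had been seen because its motif is shown above. Trpm1, a channel of melanocytes and of retinal bipolar cells, had 105 and 86.9 TPM. Ednrb (71.9 and 76.2 TPM), Sox10 (35.1 and 36.3 TPM) and Kitl (23.6 and 25.1 TPM), which glia and other cells of the eye also express, lay close to their wild-type means. The summed means of the 9 genes were 291 and 274 TPM. Of 5 cornea genes in the same eyes, 4 were lower and 1 higher, with a median log2 ratio of -0.70. Cells other than melanocytes also express Kit and Tfap2a, and the part of other tissues in the values of Kit and Tfap2a was not tested.

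**Figure D2:**
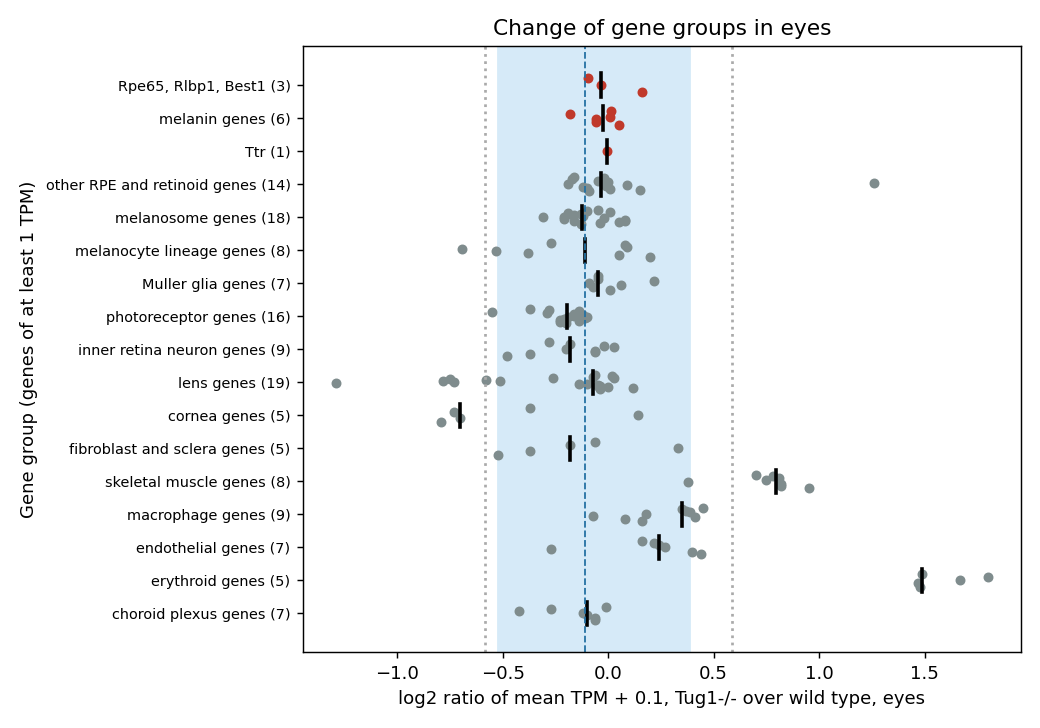
Log2 ratio of mean TPM (plus 0.1) in Tug1-/- over wild-type eyes for the 10 genes (red, in 3 groups) and for lists of genes that mark other parts of the eye (grey), 1 point per gene of at least 1 TPM and a black bar at each median. The dashed line is the median of all genes (-0.11), the shaded band spans the 5th to 95th percentile of all genes, and dotted lines mark 1.5-fold; the red points lie inside the band, while muscle and erythroid genes lie mostly to its right and cornea genes mostly to its left.

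Pigment cells are a small part of a whole eye, and the markers of some other parts differed more while those of others were as level. The eyes held the defining markers of an eye: photoreceptor genes summed to 40317 TPM in wild-type and 35695 in Tug1-/- eyes (Gnat1, the transducin of rods, 9815 and 8902), and lens genes to 66334 and 62229 TPM. All 16 photoreceptor genes were lower, as were 72.4% of all genes, with a median log2 ratio of -0.19 and none past 1.5-fold. Of 5 cornea genes, 3 were at least 1.5-fold lower (Krt5 from 2538 to 1558 TPM), and so were 4 of 19 lens genes, against 3.82% of all genes. The median log2 ratio was 0.79 for skeletal muscle, 1.49 for erythroid, 0.35 for macrophage, 0.24 for endothelial, -0.18 for inner retina neuron and -0.18 for fibroblast and sclera genes. It was -0.07 for lens genes and -0.05 for Muller glia genes, of which 0 of 7 were past 1.5-fold (Glul 2072 and 2084 TPM). For comparison, Rpe65, Rlbp1 and Best1 had a median of -0.03 and the 6 melanin genes one of -0.02. These differences between groups of genes were not tested. In a whole organ, fewer cells of a type and less RNA per cell cannot be told apart. The levels of muscle, blood, fat and cornea genes moved with the genotype, and their part in the values of the 10 genes was not tested.

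Choroid plexus genes, checked because that tissue shares Ttr and several epithelial genes with the pigment epithelium, were present in eyes, with 7 of 9 at 1 TPM or more. Their median log2 ratio was -0.10, with 0 past 1.5-fold (Aqp1 502 and 497 TPM, Clic6 83.0 and 79.4 TPM). Of 5 hepatocyte genes, Fgb was not listed in eyes, and Alb, Apoa1 and Apoa2 summed to 4.37 and 3.55 TPM. The fifth, transferrin, is named Trf in the tables and not Tf as in the list, so it is in none of the list sums. Trf, which other cells than hepatocytes also express, had 53.0 and 59.2 TPM in eyes.

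Across tissues, 8 of the 10 genes had their highest wild-type mean in eyes. The eyes held 99.8% of the summed wild-type means of the 8 tissues for Tyr and for Tyrp1, 99.3% for Rpe65, 98.6% for Dct, 97.3% for Mlana, 97.0% for Rlbp1, 95.0% for Pmel and 88.7% for Oca2. The exceptions were Ttr, at 14.4%, and Best1, at 0.745%. A gene that is not listed for a tissue had not passed the filter of the authors, which asked for 3 reads in at least 1 replicate, and was counted here as 0.

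**Figure D3:**
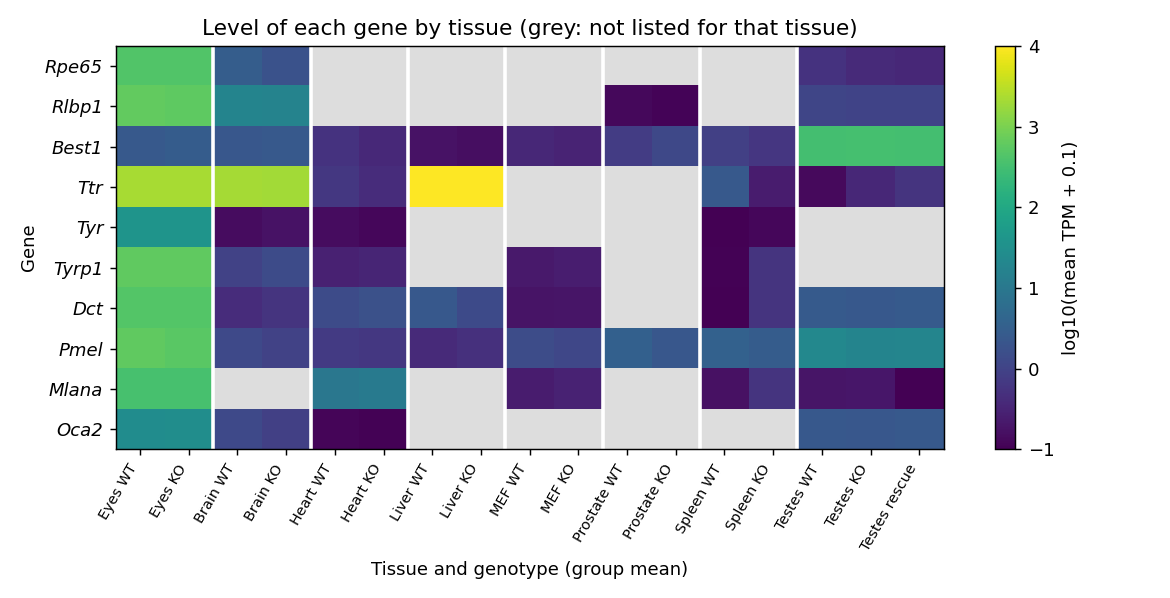
Mean level of each of the 10 genes in 8 tissues, as log10 of TPM plus 0.1, with wild-type (WT), Tug1-/- (KO) and, in testes, rescue means side by side; grey cells were not listed for that tissue. Most rows are brightest in eyes, while Best1 is brightest in testes and Ttr in liver.

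Best1 was far more abundant in testes than in eyes. It had 314 TPM in wild-type, 330 TPM in Tug1-/- and 323 TPM in rescue testes, against 2.39 TPM in wild-type eyes, a level 131-fold higher. Outside eyes, testes and brain (2.15 and 2.35 TPM) its wild-type means were below 1 TPM. Best1 and Pmel were the only members of the 10 listed in all 8 tissues. In testes 5.24% of the 21813 genes of at least 1 TPM were past 1.5-fold in either direction, and 0 of the 4 of the 10 genes at that level were. Pmel had 21.4, 18.3 and 19.1 TPM in wild-type, Tug1-/- and rescue testes, Dct had 2.55, 2.32 and 2.47 TPM, and Oca2 had 2.30, 2.13 and 2.37 TPM. Tyr and Tyrp1 were not listed in testes. Ttr stood below 1 TPM in all 3 groups, with 0.0316, 0.256 and 0.459 TPM.

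Ttr was highest in liver, with means of 11293 and 10743 TPM (log2 ratio -0.07), and it stood at 2128 and 2032 TPM in brain (-0.07). The hepatocyte genes summed to 138941 and 143683 TPM in liver and the choroid plexus genes to 87.4 and 82.3 TPM in brain. In spleen Ttr fell outside this pattern, with 2.35 TPM in the wild type and 0.137 TPM in Tug1-/- mice (log2 ratio -3.37, or -1.56 with 1 TPM added), about 126 and 7.3 normalised reads over 3 libraries each. Hepatocyte genes moved with it: Alb had 16.4 and 0.0843 TPM, Apoa1 2.53 and 0.0234 TPM, Apoa2 a log2 ratio of -2.30, Fgb 0.362 and 0.00703 TPM, and the 4 genes matched summed to 26.3 and 1.46 TPM. Trf did not follow them, with 15.6 and 13.2 TPM in spleen. Their part in the Ttr value was not tested. In spleen 9.36% of the 16810 genes were past 1.5-fold, more than in the other 7 tissues.

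Dct, Tyrp1, Mlana and Tyr were near 0 in wild-type spleens and low but present in Tug1-/- spleens. Dct had 0.00202 and 0.472 TPM, which is about 0.53 and 125 normalised reads over 3 libraries each. Tyrp1 had 0.00842 and 0.473 TPM, from about 1.1 and 60 reads. Mlana had 0.0714 and 0.476 TPM, from about 2.0 and 13 reads, and Tyr had 0.00167 and 0.0229 TPM, from about 0.54 and 7.3 reads. No fold is given, since the wild-type means rest on 2 reads or fewer. By these estimates, only Tug1-/- spleens can have brought the genes past the authors' filter of 3 reads in at least 1 replicate. A higher Tug1-/- mean was therefore the only difference they could show. Pmel, at 3.43 and 2.73 TPM, went the other way, and it overlaps Dgka, which had 167 and 136 TPM in spleen. Oca2 was not listed. Of the 9 lineage genes, 4 were at 1 TPM or more in spleen, of which 1 was higher (Kit, 13.2 and 15.6 TPM) and 3 lower, including Mitf (log2 ratio -0.27), with a median log2 ratio of -0.21. Sox10 had 0.298 and 0.202 TPM, Trpm1 0.245 and 0.172 TPM and Mc1r 0.0245 and 0.0678 TPM. Markers of other cells moved in the same spleens: all 5 erythroid genes were at least 1.5-fold higher, with summed means of 24887 and 44736 TPM, and the 5 fibroblast genes summed to 140 and 100 TPM, of which 1 was past 1.5-fold. Their part in the melanin values was not tested. Without values of single mice it cannot be said whether 1 spleen or all 3 carried the melanin transcripts.

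**Figure D4:**
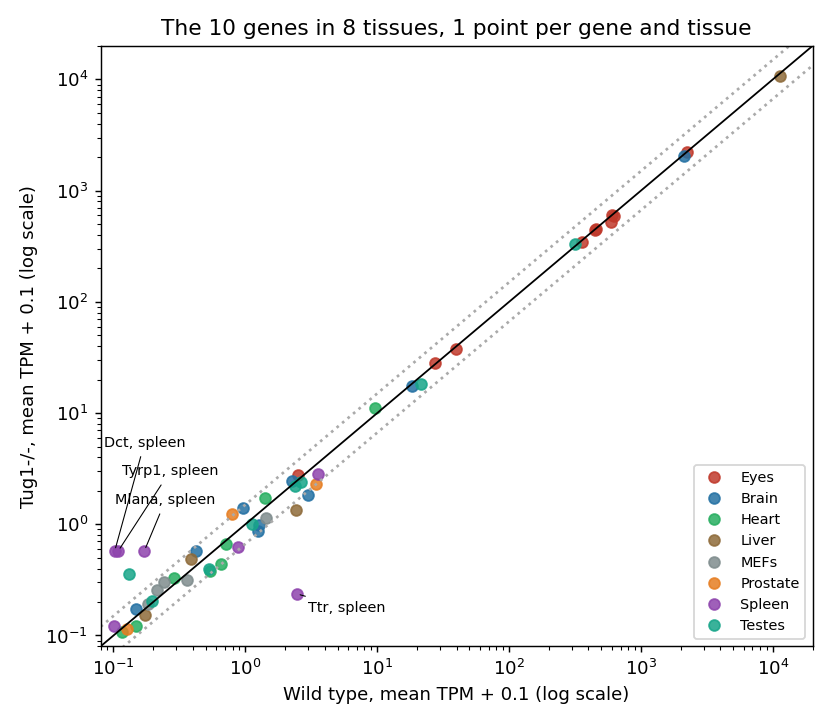
Mean TPM plus 0.1 in Tug1-/- against wild-type mice for each of the 10 genes in each tissue where it was listed, on log axes, with the line of equality and dotted lines at 1.5-fold. The eye points (red) lie along the line over the whole range, and the points furthest from it are Ttr, Dct, Tyrp1 and Mlana in spleen. By their estimated reads, Dct, Tyrp1 and Mlana passed the authors' filter in spleen only through Tug1-/- libraries.

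Heart held melanin transcripts in both genotypes. Mlana had 9.52 TPM in wild-type and 10.9 in Tug1-/- hearts (log2 ratio 0.19), its highest mean outside eyes, and Dct had 1.31 and 1.63 TPM (0.30). Tyrp1 had 0.188 and 0.232 TPM, and Tyr had 0.0471 and 0.0207 TPM, on about 29.9 reads in all 6 hearts. Of the lineage genes, Mitf had 14.9 and 17.3 TPM, Sox10 1.58 and 0.933 TPM and Kit 2.12 and 2.04 TPM in heart, and Mc1r was not listed. In heart 3.49% of genes were past 1.5-fold, and 0 of the 2 of the 10 genes at 1 TPM or more were. Of the 5 lineage genes at that level, 3 were higher and 2 lower, and only Sox10 was past 1.5-fold (log2 ratio -0.70). In the same hearts 6 of 8 skeletal muscle genes were at least 1.5-fold lower. All 9 macrophage genes were higher, 0 of them past 1.5-fold. The part of these cells in the melanin values was not tested.

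In liver, Dct had 2.32 TPM in wild-type and 1.24 in Tug1-/- livers, a log2 ratio of -0.85 on about 1135 normalised reads in all, while Pmel had 0.290 and 0.383 TPM (0.31) and Tyr, Tyrp1, Mlana, Sox10 and Mc1r were not listed. Of the 4 lineage genes at 1 TPM or more in liver, 3 were higher and 1 lower (median log2 ratio 0.15). All 9 macrophage genes were higher in the same livers, 2 of them past 1.5-fold, as were all 5 fibroblast genes, 1 past it, and their part in the Dct value was not tested. With 1 TPM added in place of 0.1 the ratio of Dct was -0.57, no longer past 1.5-fold. Of the 2 of the 10 genes at 1 TPM or more in liver, only Dct was past 1.5-fold, against 5.22% of all genes. The antisense gene model that overlaps Dct was not listed there.

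In brain Rpe65 had 2.89 TPM in the wild type and 1.72 TPM in Tug1-/- mice (log2 ratio -0.71), and it was 1 of 6 past 1.5-fold, against 4.72% of all genes. It rested on a mean normalised count of 23.3 per library, and with 1 TPM added the ratio was -0.51, no longer past 1.5-fold. None of the 9 further pigment epithelium and vitamin A genes at 1 TPM or more in brain was past 1.5-fold, with a median log2 ratio of 0.04. Of the photoreceptor and of the cornea genes, 1 of 2 each was at least 1.5-fold lower (lowest -0.77 and -1.13), and their part in the Rpe65 value was not tested. Rlbp1 was level there, with 18.3 and 17.4 TPM. Tyrp1 had 0.863 and 1.31 TPM, and Oca2 had 1.15 and 0.769 TPM. In MEFs, where 6.43% of genes were past 1.5-fold, and in prostate, where 6.72% were, only Pmel averaged 1 TPM or more over both genotypes, with 1.34 and 1.05 TPM in MEFs and 3.34 and 2.22 TPM in prostate (log2 ratio -0.57), neither past 1.5-fold. Best1 in prostate had 0.691 and 1.13 TPM. Outside eyes, 3 of the 18 pairs of gene and tissue at 1 TPM or more were past 1.5-fold in all (Rpe65 in brain, Dct in liver and Ttr in spleen), against 5.92% of all such pairs, each on a wild-type mean below 3 TPM. All 3 were lower in Tug1-/- mice, but Ttr in spleen averaged 1 TPM only through the wild type, and the higher means of Dct, Tyrp1 and Mlana in Tug1-/- spleens lay below that limit.

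The pattern over tissues was compared with that of every gene of at least 1 TPM in eyes, by Pearson correlation of log2 levels (TPM plus 0.1) over the 17 means of tissue and genotype. These means come from 8 tissues only, so any gene made mostly in eyes scores high, and no test was made. With the mean profile of the 6 melanin genes, Tyr had r = 0.972, Tyrp1 0.942, Dct 0.936, Mlana 0.876, Pmel 0.868 and Oca2 0.860. Among the 5 other genes nearest to it were Rbp2 (0.991), Lctl (0.987), Gm11961 (0.985) and Pitpnm2os2 (0.985), and 271 genes in all had r above 0.95. With the mean profile of Rpe65, Rlbp1 and Best1, the member values were 0.912, 0.946 and 0.597. The nearest other genes were 4933430M04Rik (0.993), Frmpd1 (0.992), Pou4f1 (0.991), Insl5 (0.990) and Pdzph1 (0.987). Pou4f1 is a factor of retinal ganglion cells, with 13.9 and 12.1 TPM in eyes.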

How the data were processed

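The authors sequenced TruSeq polyadenylated libraries, aligned reads to the mouse genome (GRCm38) with STAR, counted unique reads with featureCounts over GENCODE genes, kept genes that reached 3 reads in any replicate, and compared genotypes per tissue with DESeq2. Per the labels, CASAVA 1.8.2 processed the base calls. Whether counting used strand is not stated. The deposited values used were group means in TPM and, outside testes, the mean normalised count over all libraries of a tissue, a signal with no unit. The deposited fold changes, statistics and p-values are the authors' comparisons and were not used. There were 0 columns of single samples. The planned comparison was therefore descriptive.

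The log2 ratio of mean TPM plus 0.1 was taken (Tug1-/- over wild type), with 1.5-fold as the limit for a call among genes of at least 1 TPM. Named genes were the 10 genes, Tug1, from the 3 pigment lists the 4 most abundant and the 3 of largest ratio, up to 2 per other list plus those not listed, and the 5 of most similar pattern per group. Other genes named are Mitf and the melanocyte genes outside eyes, the hepatocyte genes in spleen, Trf, Rbp4 outside eyes, the genes that overlap others and 6 fat cell genes, all chosen after their values were seen. The 10 genes and the lists were chosen with earlier results of these data known. Alternatives were other pseudocounts, centring, rescaling, limits and filters. The 6 samples of F1 hybrid testes were not analysed here. Some genes that the naming rule picks are not reported here. The ratio step was tested on simulated data. Python 3.11.15, numpy 2.4.6, pandas 2.3.3 and matplotlib 3.10.9 were used.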

Additional observations from a re-analysis of the deposited data

How the results depend on the processing

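The count of the 10 genes at least 1.5-fold higher or lower in Tug1-/- eyes was 0 under every alternative run: pseudocounts of 0.01 and 1 TPM, centring on all genes, rescaling without the 100 most abundant genes (which left out Ttr), a lower limit of fold and one of 2-fold, no filter on level and a filter at 5 TPM. The 2-fold limit and the run with no filter could give only 0, since all 10 genes had at least 1 TPM. The filter at 5 TPM was applied to the count of all genes and not to the 10, which kept Best1 (2.39 and 2.69 TPM). The median log2 ratio of the 10 genes moved from -0.02 to 0.09 when centred, which shifts every gene by the same amount, and to 0.01 when rescaled, over the 9 genes left. The largest ratio of any of the 10 under these settings was 0.27. The share of all genes past 1.5-fold was 3.82% lower and 2.84% higher as reported, and centring turned the excess round (2.55% lower, 3.76% higher), as did a filter at 5 TPM (1.64% and 2.18%) and a pseudocount of 1 TPM (1.99% and 2.02%). With no filter it was 7.69% lower and 4.97% higher, when rescaled 4.14% and 3.49%, and with a pseudocount of 0.01 TPM 4.18% and 2.94%. With a pseudocount of 1 TPM, Rpe65 in brain (-0.51) and Dct in liver (-0.57) no longer passed 1.5-fold, Ttr in spleen moved from -3.37 to -1.56, and of the 18 values outside eyes only the first pair changed side. No paired analysis was possible because only means of groups are given, and for the same reason no sample could be left out in turn. Best1 ranged from 0.12 to 0.27 across settings, with a standard error from counting of 0.14.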
